A study of Mus musculus with 8 samples.

Results

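The 10 genes described here encode parts of the contractile apparatus of mural cells or mark pericytes, and they were followed through single-cell transcriptomes of mouse periosteum, the membrane on the outer surface of bone. The list holds 6 contractile genes (Acta2, Tagln, Myh11, Cnn1, Myl9 and Tpm2) and 4 pericyte genes (Rgs5, Cox4i2, Kcnj8 and Abcc9), out of 32285 genes listed in the matrices. They were picked by name, with earlier results of these libraries known, because their molecules (unique molecular identifiers, UMIs) gathered in a mural class and in part of the osteogenic class, so their levels are a description and carry no test. All mice were C57BL/6J male mice, 16 weeks old, and were fed normal diet chow (ND) or high fat diet chow (HFD). Periosteal cells came from the left femurs and tibias of 4 mice per diet, freed with collagenase I and dispase II, with no sort stated. They were run on the 10x Genomics Chromium platform. For each diet 1 matrix covers the 4 mice, and it is called a library here. The cells could not be assigned to mice, so a difference between ND and HFD is a difference between 2 libraries, and no p-value can be given.

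The ND matrix held 6314 barcodes and 48558889 UMIs and the HFD matrix 6636 barcodes and 49940976 UMIs, and after the filters 6029 ND and 6224 HFD cells remained, with medians of 4610 and 4823.5 UMIs. Clustering left out the 10 genes, and classes were named from other markers, so none of the 10 genes helped to define the classes. The mural-like class held 28 ND and 58 HFD cells, the osteogenic-like class 58 and 128, and the other stromal cells (fibroblast-, tenocyte- and chondrocyte-like) 320 and 512. The libraries shared 15 barcodes, none of them in a stromal or vascular class. All 16 mural markers were detected in the mural-like cells of both libraries and summed to 6650.0 and 7193 UPM (UMIs per 1000000 UMIs of the class), Sncg, Gucy1a1 and Lmod1 having the most. These markers had named the class, so their detection in it was not a test of the name. Markers of other cells were lower in the same class. The 9 neutrophil markers, 7 of them detected in each library and Cxcr2 at 0 in both, summed to 742 and 974 UPM, with cells from 236 to 3296 in ND and from 284 to 3336 in HFD. The 8 endothelial markers gave 1 and 29 UMIs, with Emcn at 0 in both libraries, and the 9 B cell markers, which include the mural gene Ebf1, summed to 1272 and 929 UPM. Their part in the results was not tested.

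Mural cells wrap blood vessels. Smooth muscle cells of arteries and arterioles contract through actin, myosin and the proteins that regulate them, and pericytes sit on capillaries and postcapillary venules inside the basement membrane. Acta2 encodes smooth muscle alpha-actin, Myh11 the smooth muscle myosin heavy chain, Myl9 a regulatory myosin light chain, Tpm2 beta-tropomyosin, which lies along actin filaments, Tagln transgelin and Cnn1 calponin, both actin-binding. Rgs5 encodes a regulator of G protein signalling, Cox4i2 an isoform of a cytochrome c oxidase subunit, and Kcnj8 and Abcc9 the pore and the sulfonylurea receptor subunit of a vascular ATP-sensitive potassium channel. In bone, Acta2 is also used as a mark of perivascular and skeletal progenitor cells.

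In the GRCm38 build (mm10) with GENCODE M21 annotation, all 10 are protein-coding genes. Acta2 lay at chr19:34241090-34255590 on the minus strand, Tagln at chr9:45929619-45936058 (minus), Myh11 at chr16:14194535-14291372 (minus), Cnn1 at chr9:22099216-22109630 (plus), Myl9 at chr2:156775420-156781658 (plus) and Tpm2 at chr4:43514711-43523765 (minus). Among the pericyte genes, Rgs5 lay at chr1:169655501-169695813 (plus), Cox4i2 at chr2:152754173-152765037 (plus), Kcnj8 at chr6:142564837-142571614 (minus) and Abcc9 at chr6:142587862-142702315 (minus). Kcnj8 and Abcc9 were neighbours on the same strand with 16247 bases between them. Tagln overlapped the end of Pcsk7 and the annotated antisense transcript Gm48529 on the opposite strand, and Abcc9 overlapped the antisense transcript 5330439B14Rik. Whether the counting used strand at such overlaps was not stated.

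Serum response factor, which drives many smooth muscle genes, binds the CArG box, in which CC and GG enclose 6 bases that are all A or T. The promoter window (250 bases before to 50 after the start, RefSeq, GRCm38.p6) was on hand for 7 of the 10 genes, and was searched for the CArG box and for CArG-like runs with at least 5 of the 6 inner bases A or T. The motif reads as the same motif on the other strand, so 1 search covered both. A CArG box stood in 1.63% of all 32851 promoter windows, a CArG box or CArG-like run in 9.98%, and at least 2 such runs in 0.822%. Acta2 and Myl9 are shown because they were the members with matches, with 2 runs each, printed in capitals. The RefSeq starts of Acta2 and Myl9 lie inside the GENCODE spans given above rather than at their ends. In Acta2 (chr19:34255324-34255623, minus strand) both runs were CArG-like and began 84 and 34 bases before the RefSeq start. In Myl9 (chr2:156775214-156775513, plus strand) the run 161 bases before the start was a full CArG box and that at 99 bases was CArG-like. The windows of Cnn1, Tpm2, Rgs5, Kcnj8 and Abcc9 held no such letters.
Acta2: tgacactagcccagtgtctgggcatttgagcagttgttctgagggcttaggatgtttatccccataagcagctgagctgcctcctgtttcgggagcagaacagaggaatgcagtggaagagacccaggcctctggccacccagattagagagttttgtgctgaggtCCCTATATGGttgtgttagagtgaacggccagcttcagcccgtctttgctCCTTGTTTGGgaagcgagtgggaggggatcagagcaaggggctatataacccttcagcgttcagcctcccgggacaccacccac
Myl9: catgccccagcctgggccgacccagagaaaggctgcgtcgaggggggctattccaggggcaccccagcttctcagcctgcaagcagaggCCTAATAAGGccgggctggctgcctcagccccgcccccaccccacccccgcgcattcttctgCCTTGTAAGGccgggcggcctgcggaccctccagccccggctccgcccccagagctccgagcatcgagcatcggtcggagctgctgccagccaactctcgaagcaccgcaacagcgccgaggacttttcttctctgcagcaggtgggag

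The contractile genes stood far higher in the mural-like cells than in any other named class of both libraries. Levels are given in UPM, with 95% exact Poisson intervals, which like all intervals here cover counting error only. Acta2 reached 15206.5 (14736 to 15688) in ND and 17020.1 (16669.9 to 17376) in HFD. Tagln stood at 15795 and 15599, and Myh11 at 3740.1 and 3825. Both were therefore at nearly the same level in the ND and HFD cells. Myl9 was at 6392 and 7593, Tpm2 at 4509 and 5506, and Cnn1 at 242 (186 to 310) and 311 (265 to 362). For all 6 genes the mural level was at least 10 times that of every other named class in both libraries. This held for 0 of the 4 pericyte genes and for 1.77% of the 4734 genes with at least 20 UMIs in the mural-like cells. The genes had been picked because their UMIs gathered in a mural class, so the count is a description and no enrichment. The plot of levels by class shows that the named class next in order was the osteogenic-like one for 4 of the 6 genes in ND and for 6 of 6 in HFD. For Myh11 and Cnn1 that place in HFD rested on 22 UMIs of 1 cell and on 3 UMIs.

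**Figure D1:**
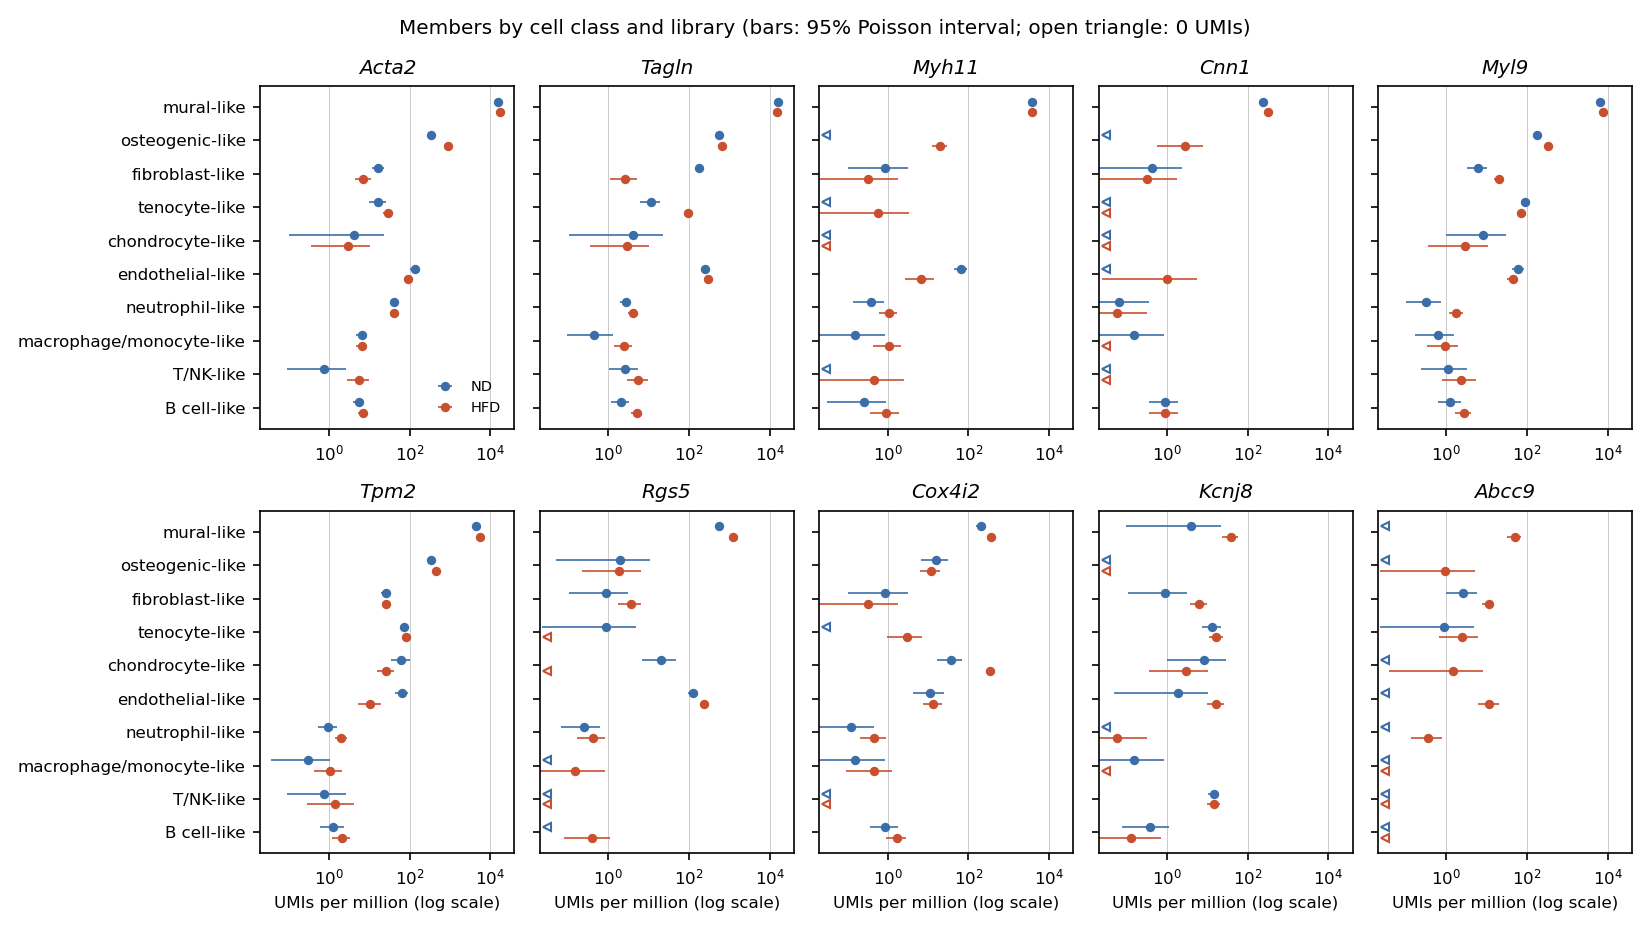
UPM (log scale) for each of the 10 genes in 10 cell classes, ND in blue and HFD in red, with 95% Poisson intervals and open triangles where no UMI was found. Acta2 stood at 15206.5 and 17020.1 in the mural-like cells and at 339 and 888 in the osteogenic-like cells, while Kcnj8 and Abcc9 did not reach 50 in any class shown.

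Taking both libraries together, the mural-like cells, 86 of 12253 kept cells, held 92.7% of all Myh11 UMIs, 89.0% of Cnn1, 83.7% of Myl9, 82.7% of Tagln, 79.2% of Acta2 and 74.4% of Tpm2. The pericyte genes were spread more widely, with 55.6% of Rgs5, 39.6% of Cox4i2, 22.0% of Abcc9 and 9.81% of Kcnj8 in the mural-like cells. For each contractile gene the lower of the 2 mural levels stood above the higher level of the class next in order. For Acta2 that class was the osteogenic-like one, at 339 (290.5 to 394) and 888 (833 to 946). Further down, neighbouring classes often changed places between the libraries, as for Myh11, at 64.7 and 6.79 UPM in endothelial-like and 0 and 20.1 in osteogenic-like cells.

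Within the mural-like class the contractile genes were carried by every cell. Acta2, Tagln, Myh11, Myl9 and Tpm2 had a UMI in 28 of 28 ND and 58 of 58 HFD cells, whereas Cnn1 was found in 11 of 28 and 33 of 58. Per cell, Acta2 ran from 12 over a median of 115.5 to 577 UMIs in ND and from 16 over 135.5 to 708 in HFD. The spread between cells was thus wide in both libraries, and the 2 ranges lay over each other. Scaled to 10000 UMIs of the cell, the sum of the 6 genes ranged from 139 (median 443) to 927 in ND and from 85.3 (median 463) to 1169 in HFD. Between pairs of the 6 genes, so scaled, Spearman's rho had a median of 0.28 (lowest -0.37, highest 0.78, 15 pairs) over the 28 ND cells and of 0.65 (0.32 to 0.79) over the 58 HFD cells. Acta2 and Tagln went together in both, with rho of 0.78 and 0.75, while Acta2 and Myh11 gave -0.10 and 0.36. The cells of a library share its preparation and their depth, so these are descriptions.

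**Figure D2:**
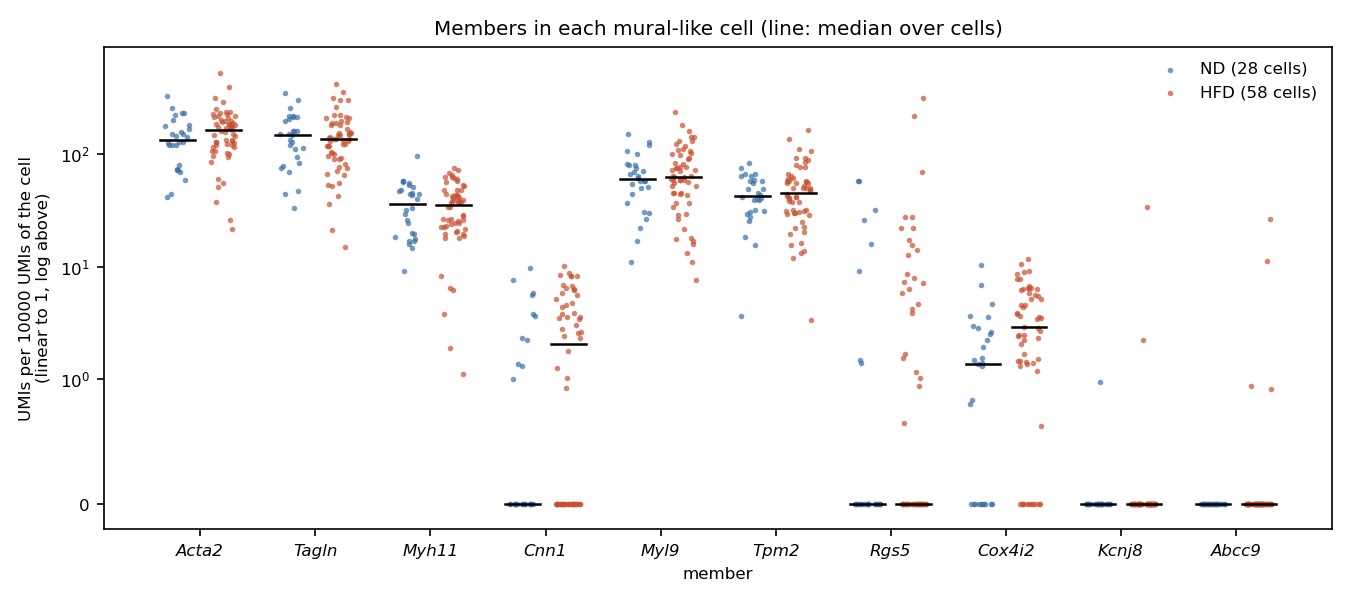
UMIs per 10000 UMIs of the cell (linear to 1, log above) for each gene in each mural-like cell, 28 ND cells in blue and 58 HFD cells in red, with a line at the median over cells. The 5 contractile genes other than Cnn1 lay above 0 in every cell, whereas the medians of Rgs5, Kcnj8 and Abcc9 were 0 in both libraries.

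Set side by side, the 2 diets differed little in the contractile genes of the mural-like cells. The sum of the 6 genes was 45885 UPM in ND and 49853 in HFD, an HFD over ND ratio of 1.09 (counting interval 1.06 to 1.11). By gene the ratio was 1.12 for Acta2, 0.988 for Tagln, 1.02 (0.947 to 1.11) for Myh11, 1.19 for Myl9, 1.22 for Tpm2 and 1.28 (0.954 to 1.74) for Cnn1. None of the 6 passed the fixed threshold of 1.5-fold in either direction, a threshold that 10.6% of the 4734 tested genes passed upwards and 12.6% downwards in these cells. The median log2 ratio of the 6 genes was 0.21, beside 0.01 over all genes tested. Leaving out the highest cell of each library gave 1.73 (1.21 to 2.53) for Cnn1, since 1 ND cell held 24 of its 63 UMIs.

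Other genes of the contractile apparatus gave a like picture. All 16 mural markers stand in the companion lists, so companion levels were not independent of the naming of the class. Of a list of 31 companion contractile genes, 27 had enough UMIs in the mural-like cells. Of these, 1 was higher and 1 lower by 1.5-fold, beside 10.6% and 12.6% of all 4734 genes tested. The median log2 ratio of the 27 was 0.05. Those with the most UMIs were Myl6, an essential myosin light chain (6223 and 7363 UPM), Tpm1, alpha-tropomyosin (3959 and 4378), Mustn1 (3617 and 3656) and Cald1, caldesmon, which restrains actomyosin (2541 and 2426). Their HFD over ND ratios were 1.18, 1.11, 1.01 and 0.955. The gene past the threshold upwards was Ppp1r14a, an inhibitor of myosin phosphatase, at 484 and 739 UPM (ratio 1.53, 1.25 to 1.88). The gene below it was Itga8, an integrin chain, at 192 and 114 (ratio 0.592, 0.400 to 0.879), which is named here after its value was seen.

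Non-muscle paralogs were measured beside them. Of 24 listed, 14 were tested in the mural-like cells, with a median log2 ratio of 0.10. Of the 14, 1 was higher (Myh9, ratio 1.56) and 1 lower (Rgs2, ratio 0.315), both named after their values were seen. Of all 4734 genes tested, 10.6% were higher and 12.6% lower. Actb, cytoplasmic beta-actin, stood at 13104 and 11402 UPM (ratio 0.870) and Actg1, gamma-actin, at 1584 and 1179 (ratio 0.744), while Cox4i1, the broadly expressed paralog of Cox4i2, stood at 1142 and 1323 (ratio 1.16). Acta2 and these other actins therefore lay on opposite sides of 1. The striated muscle list reached 4 and 39 UMIs of its 8 marker genes in the mural-like cells, 3 and 38 of them from Myl1, a myosin light chain (ratio 6.25, 1.98 to 31.6), with Acta1, Tnnt3, Tnni2, Mylpf, Ckm and Actn3 at 0. Its part in the results was not tested. The 6 platelet markers gave 2 and 3 UMIs, of which Pf4 had the most.

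The pericyte genes gave another picture, in which a few cells decided the totals. Rgs5 stood at 565 (477 to 664) UPM in the ND and 1260.4 (1166 to 1359.9) in the HFD mural-like cells, a ratio of 2.23 (1.86 to 2.69). Cox4i2 stood at 211 (159 to 275) and 364 (314 to 419), a ratio of 1.72 (1.27 to 2.37). Kcnj8 gave 1 and 20 UMIs (ratio 9.86, counting interval 1.58 to 409), and Abcc9 0 UMIs in ND, which allows a level of up to 11.5 UPM, and 26 in HFD, or 49.3 (32.2 to 72.2). With 0.5 added to each count, all 4 genes passed 1.5-fold upwards. Kcnj8 and Abcc9 reached the minimum of 20 UMIs only through the HFD cells, so their passing was set by that filter. The count is therefore no like comparison with the 10.6% of genes tested that passed. The median log2 ratio of the 4 genes, under the same limit, was 1.95, or 1.63 with Abcc9 in ND set to its limit of 3 UMIs. The sum of the 4 was 780.3 in ND and 1711 in HFD, a ratio of 2.19 (1.88 to 2.57).

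The excess of 3 of these genes lay in 2 HFD cells. Of the 58 HFD mural-like cells, 2 held all 20 Kcnj8, 24 of the 26 Abcc9 and 399 of the 665 Rgs5 UMIs, and no ND mural-like cell had 5 or more Kcnj8 and Abcc9 UMIs. The first had 5302 UMIs in all, with 116 of Rgs5, 18 of Kcnj8, 14 of Abcc9 and 42 of Vtn, and the second 8970, with 283 of Rgs5, 2 of Kcnj8, 10 of Abcc9 and 24 of Higd1b. Vtn and Higd1b are known as pericyte genes and are named here after their values were seen. Each cell was rich in only 1 of them, since the first held 1 Higd1b UMI and the second 0 Vtn UMIs. Their contractile sum was low, at 10930.5 UPM against 50935 in the other 56 HFD cells, with 2 Myh11 UMIs and no Cnn1. Neither held a Cdh5 or Pecam1 UMI, the endothelial markers, and both were among the cells with the highest 5% of doublet scores. The plot of Rgs5 against the contractile sum sets them apart at the upper left.

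**Figure D3:**
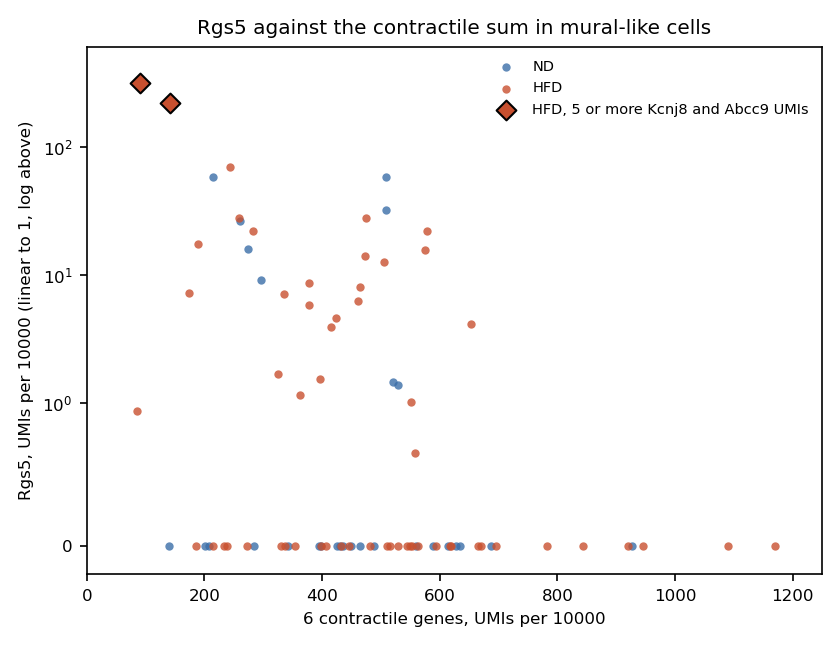
Rgs5 (linear to 1, log above) against the summed 6 contractile genes, both as UMIs per 10000 UMIs of the cell, in the mural-like cells of ND (blue) and HFD (red), with diamonds for cells of 5 or more Kcnj8 and Abcc9 UMIs. The 2 diamonds lie at 219 and 315 for Rgs5 and at 90.3 and 141 for the contractile sum, and the highest of the other cells reached 69.5 for Rgs5.

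Without these 2 cells, a comparison chosen after the data were seen, Rgs5 stood at 518 UPM in HFD against 565 in ND, a ratio of 0.917 (0.747 to 1.13). Kcnj8 then had 0 and Abcc9 2 UMIs in HFD. The sum of the 4 genes gave a ratio of 1.12 (0.9498 to 1.33). Cox4i2 was the pericyte gene that stayed past the threshold, at 355 against 211 UPM (ratio 1.68, 1.23 to 2.31). It had a UMI in 18 of 28 ND and 47 of 58 HFD cells, and after each cell was thinned to 2000 UMIs in 21.4% (8.30 to 41.0, exact Clopper-Pearson interval) of the 28 ND and 54.4% (40.7 to 67.6) of the 57 HFD cells deep enough. In B cell-like cells, taken as background, the unthinned share was 0.387% and 0.803% and the thinned one 0.131% and 0.273%, at median depths of 3913.5 and 3831 UMIs against 8198.5 and 8638 in the mural-like cells.

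Rgs5 was patchy across the mural-like cells. With the 2 HFD cells counted, a UMI was found in 8 of 28 ND (28.6%) and 26 of 58 HFD cells (44.8%), and without them in 24 of 56 HFD cells. Of the 1552 ND B cell-like cells 0 held a UMI, which allows a share of cells with a UMI of up to 0.193%, and the HFD share was 0.201%. Thinned to 2000 UMIs, the shares over all mural-like cells deep enough were 28.6% (13.2 to 48.7) and 33.3% (21.4 to 47.1), so their intervals overlapped. At least 10 Rgs5 UMIs were held by 5 ND and 10 HFD cells, or 8 HFD cells without those 2. Over cells, Rgs5 and the contractile genes had Spearman's rho of -0.19 in ND and -0.31 in HFD (median of 6 pairs, UMIs per 10000, 28 and 58 cells), and Cox4i2 and the contractile genes 0.03 and -0.10. Cells rich in Rgs5 but without Kcnj8 or Abcc9 still carried contractile genes, as in an HFD cell with 40 Rgs5, 252 Acta2 and 99 Myh11 UMIs and an ND cell with 58 Rgs5, 232 Acta2 and 16 Myh11 UMIs.

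Cells with Rgs5, Kcnj8 and Abcc9 together were also found outside the mural-like class. Across all kept cells, at least 15 Rgs5 UMIs came with at least 5 Kcnj8 and Abcc9 UMIs in 1 ND and 4 HFD cells. The ND cell, with 66 Rgs5, 18 Kcnj8, 5 Abcc9 and 9 Vtn UMIs, lay in a cluster left unnamed because its leading genes came from several lineages. The 2 mural-like cells made up 2 of the 4 HFD cells, and another with 19 Rgs5, 3 Kcnj8 and 5 Abcc9 UMIs lay in the same unnamed cluster. This HFD cell and the ND cell of that cluster were, like the 2 mural-like cells, among the highest doublet scores. The remaining HFD cell, with 197 Rgs5, 14 Kcnj8, 12 Abcc9 and 13 Vtn UMIs, lay in the endothelial-like class and held 8 Cdh5 and 10 Pecam1 UMIs as well. It held 197 of the 241 Rgs5 UMIs of that class in HFD and was not among the highest doublet scores. The ratio of 1.89 for Rgs5 in endothelial-like cells (124 and 234 UPM) was 1.29 (0.725 to 2.42) without the highest cell of each library. Another 2 ND cells with 66 and 70 Rgs5 UMIs had mixed markers, including 2719 and 1395 UMIs of the neutrophil gene S100a8. They too were among the highest doublet scores.

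Of 24 companion pericyte genes, 23 were tested in the mural-like cells. Of these, 5 were higher and 2 lower by 1.5-fold, beside 10.6% and 12.6% of all 4734 genes tested. The median log2 ratio of the 23 was 0.18. Those with the most UMIs were Gucy1a1, a subunit of the nitric oxide receptor (907 and 900 UPM), Ndufa4l2, a mitochondrial protein (511 and 732), Notch3, the Notch receptor of mural cells (542 and 616), and the transcription factor Ebf1 (673 and 548). Their HFD over ND ratios were 0.992, 1.43, 1.14 and 0.814, so none of these 4 passed the threshold. The 5 higher genes were Higd1b, Vtn, Art3, Nes and Steap4 and the lower ones Heyl and Ano1, named after their values were seen and all below 200 UMIs. Vtn went from 6 to 51 and Higd1b from 14 to 76 UMIs, of which the 2 HFD cells held 42 and 25. Without those cells 21 genes were tested, 2 were higher and 2 lower, and the median was 0.12, with Higd1b still higher at 51 UMIs (ratio 1.85).

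**Figure D4:**
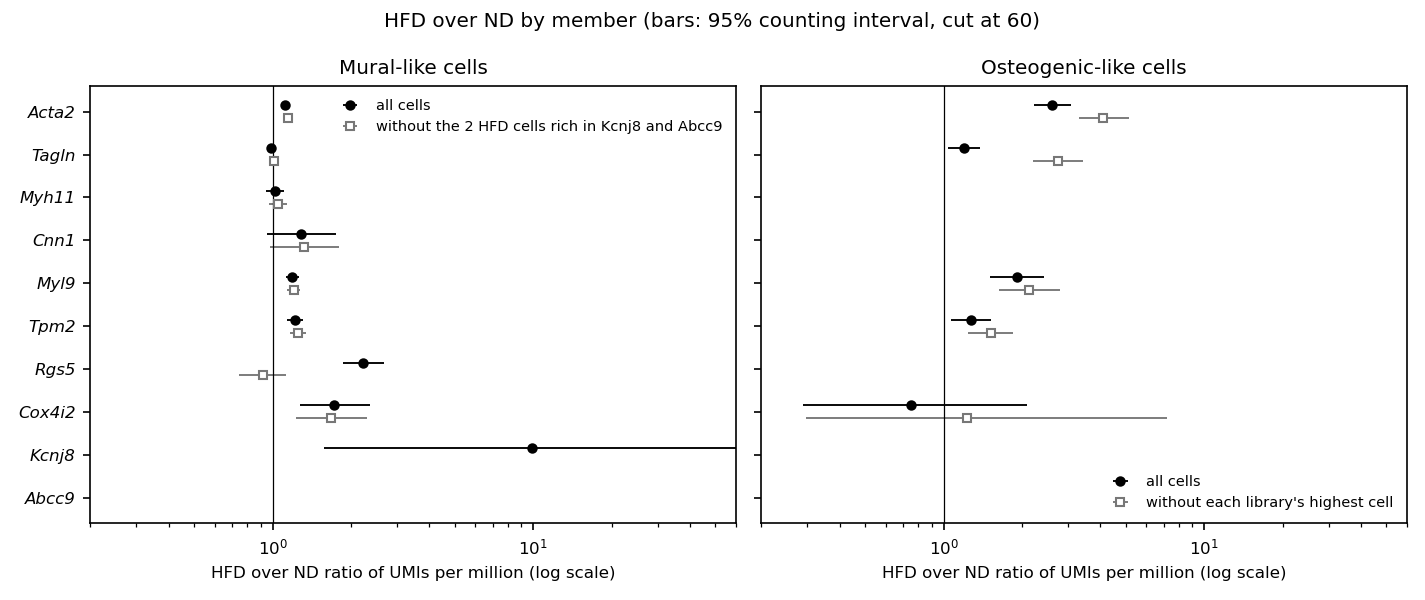
HFD over ND ratio of UPM (log scale, line at 1) for each gene in mural-like cells (left) and osteogenic-like cells (right), with 95% counting intervals ending at 60, filled for all cells and open without the 2 HFD cells rich in Kcnj8 and Abcc9 (left) or without the highest cell of each library (right). On the left Rgs5 moved from 2.23 to 0.917 and Cox4i2 from 1.72 to 1.68, and on the right Acta2 moved from 2.62 to 4.10. Genes with no UMI in a library have no point.

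The mural-like class itself took 0.464% (0.309 to 0.671, exact Clopper-Pearson) of kept ND and 0.932% (0.708 to 1.203) of kept HFD cells, a ratio of 2.01 (1.26 to 3.27). Among stromal and vascular cells alone, 518 in ND and 922 in HFD, a denominator chosen after the data were seen, it took 5.41% and 6.29%, a ratio of 1.16 (0.729 to 1.90). Stromal and vascular classes thus took larger shares of the HFD library together. How cells were lost in digestion and capture was not tested. Summed over all kept cells, Acta2 stood at 110.1 in ND and 223 in HFD per 1000000 UMIs of the library (ratio 2.03), and the 6 contractile genes at 323 and 636 (ratio 1.97).

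Outside the vessel wall, Acta2, Tagln, Myl9 and Tpm2 were next highest in osteogenic-like cells, named from Bglap, Ibsp, Alpl, Col11a1 and other bone markers. There the 2 libraries differed more, though the ratio of the sum of the 6 genes fell below 1.5-fold under some alternative settings. Acta2 stood at 339 (290.5 to 394) UPM in the 58 ND and 888 (833 to 946) in the 128 HFD cells, a ratio of 2.62 (2.22 to 3.10). Myl9 stood at 176 and 335 (ratio 1.91, 1.51 to 2.44), Tpm2 at 347 and 442 (1.27, 1.07 to 1.52) and Tagln at 558 and 669 (1.198, 1.04 to 1.38). Myh11 had 0 and 22 UMIs, all in 1 HFD cell, and Cnn1 0 and 3. With 0.5 added to each count, Acta2 and Myl9 passed 1.5-fold upwards. Myh11 did so too, but it counted as tested only through that 1 HFD cell, so its passing was set by the filter. None of the 5 genes tested passed downwards. In this class 11.5% of the 7528 genes tested passed upwards and 11.3% downwards. The median log2 ratio of the 5, with Myh11 counted, was 0.93, also with Myh11 in ND set to its limit of 3 UMIs, and so rested in part on that cell. The sum of the 6 genes was 1420.2 and 2357 (ratio 1.66, 1.53 to 1.81), and the pericyte genes had 9 and 16 UMIs in all.

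More of the HFD osteogenic-like cells held Acta2. A UMI was found in 14 of 58 ND cells (24.1%, 13.9 to 37.2) and 52 of 128 HFD cells (40.6%, 32.0 to 49.7), beside 2.51% and 2.14% of B cell-like cells. The median depth was 7516.5 and 7238 UMIs in the osteogenic-like and 3913.5 and 3831 in the B cell-like cells. Thinned to 2000 UMIs, the shares were 14.5% (6.50 to 26.7) of 55 and 32.4% (23.9 to 41.97) of 111 osteogenic-like cells, and 1.24% and 1.30% of B cell-like cells. The osteogenic shares thus stood well above the B cell-like ones, and their own intervals overlapped slightly. At least 5 Acta2 UMIs were held by 6 ND (10.3%, 3.89 to 21.2) and 25 HFD cells (19.5%, 13.1 to 27.5).

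Single cells weighed on these sums in both libraries. In ND 1 osteogenic-like cell held 186 of the 283 Tagln and 80 of the 172 Acta2 UMIs, and the highest HFD cell held 118 of 972 Acta2 and all 22 Myh11 UMIs. That HFD cell also held 5545 S100a8 UMIs and 15 of the 16 mural markers, but no Bglap or Ibsp, and was among the highest doublet scores. Without the highest cell of each library, gene by gene and chosen after the data were seen, the ratio was 4.10 (3.30 to 5.14) for Acta2, 2.74 (2.21 to 3.43) for Tagln, 2.12 for Myl9 and 1.52 for Tpm2. Neutrophil markers summed to 2943 UPM in the ND and 19063 in the HFD class. After 2 cells of each library with at least 2% of their UMIs in neutrophil markers were left out, those sums were 1307 and 1246. Acta2 was then at 338 and 765 (ratio 2.26, 1.91 to 2.69) and Tagln at 570.3 and 555 (ratio 0.974, 0.842 to 1.13).

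Acta2 and Tagln marked a subset of the osteogenic-like cells rather than all of them. Neither gene had a UMI in 41 of 58 ND and 66 of 128 HFD cells, while 8 and 37 cells had both. Over cells, as UMIs per 10000, Spearman's rho of Acta2 was 0.62 and 0.70 with Tagln (58 and 128 cells), 0.47 and 0.49 with the matrix gene Tnn, 0.47 and 0.38 with Postn, and -0.33 and -0.22 with Spp1. The cells with at least 5 Acta2 UMIs had Tagln at 2389 (ND) and 1794 (HFD) UPM, against 15.1 and 48.2 in cells without Acta2. Postn, periostin of the periosteal matrix, stood at 8429 and 6623 against 2947 and 3787, and Tnn, tenascin N, at 1421 and 1237 against 462 and 458. Col1a1 was also higher in sum, at 41894 and 24818 against 15352 and 17451, though its rho with Acta2 was weaker in HFD (0.18) than in ND (0.49). Bglap, osteocalcin of mature osteoblasts, was lower in sum, at 1545 and 4492 against 7092 and 7983, though its rho with Acta2 was weak (-0.11 and -0.13). Spp1, osteopontin, was also lower, at 0 and 275 against 3415 and 18364. Runx2 stood at 53.3 and 116 against 217 and 259, and Sp7 at 17.8 and 86.2 against 96.6 and 128. Mmp13 stood at 844 and 1242 against 2029 and 4126. Their rho with Acta2 was -0.29 and -0.17, -0.079 and -0.078, and 0.025 and -0.027. Dmp1 and Ifitm5 had no UMI in the cells with at least 5 Acta2 UMIs, which allows up to 26.6 UPM in ND and 8.08 in HFD. In cells without Acta2, Dmp1 stood at 6.04 and 36.1 and Ifitm5 at 33.2 and 44.2. For Dmp1 the ND values therefore could not show a lower level. Most bone markers were thus lower in sum, but not all. Col11a1, which also named the class, was higher, at 1537 and 1169 against 377 and 518. Alpl, alkaline phosphatase, stood at 1128 and 1188 against 1253 and 1377. Ibsp, bone sialoprotein, was higher in ND (7709 against 4112) and lower in HFD (2468 against 8438), with rho of -0.067 and -0.050. In ND 1 cell held 671 of the 868 Ibsp UMIs of the cells with at least 5 Acta2 UMIs, so the ND value rested largely on that cell.

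The depth of these cells differed too, with median totals of 14614.5 and 15639 UMIs in cells with at least 5 Acta2 UMIs against 6998.5 and 6299 in cells without, and its part was not tested. Myl9 and Tpm2, like Tagln, went with Acta2 here, with rho of 0.41 and 0.62 and of 0.30 and 0.50, whereas Myh11, Rgs5 and Notch3 did not. The mural marker Pdgfrb stood at 124 and 91.6 UPM in cells with at least 5 Acta2 UMIs, against 202 and 185 in cells without. In the 6 ND cells Myh11, Rgs5 and Notch3 were all at 0, which allows up to 26.6 UPM, beside 21.1 for Notch3 in ND cells without Acta2. The 25 HFD cells held 22 Myh11 UMIs, all from the doublet-scored cell, with 2 of Rgs5 and 5 of Notch3. Of the cells with at least 100 contractile UMIs, 2 in ND and 8 in HFD, Myh11 was absent from 2 and 7, and Bglap or Ibsp present in the same number. These genes other than the members were chosen after their values were seen. Of the companion contractile genes, 17 were tested in this class, and 3 were higher (Csrp1, Actn1 and Mustn1, with ratios of 1.76, 1.61 and 3.71) and 1 lower (Mrtfa, 0.602), with a median log2 ratio of 0.30 beside -0.02 over all genes. Of all 7528 genes tested in the class, 11.5% were higher and 11.3% lower.

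**Figure D5:**
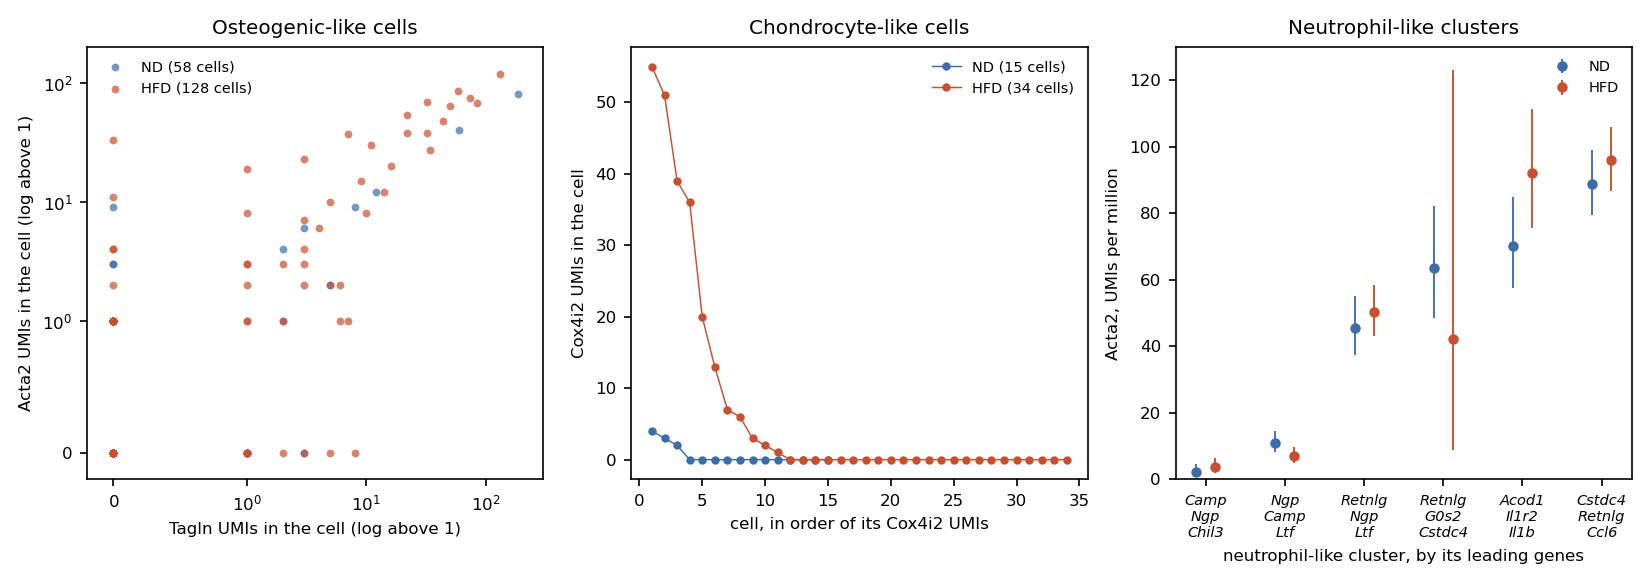
Left, Acta2 against Tagln UMIs in each osteogenic-like cell (log above 1); middle, Cox4i2 UMIs of the chondrocyte-like cells in descending order; right, Acta2 UPM with 95% Poisson intervals in 6 neutrophil-like clusters named by their leading genes; ND in blue, HFD in red. Cells high in Acta2 were mostly high in Tagln, up to 118 and 186 UMIs, 11 HFD chondrocyte-like cells held Cox4i2 up to 55 UMIs, and neutrophil-like levels ran from 2.26 and 3.60 to 88.8 and 96.0.

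In the other stromal cells the contractile genes were low, and the direction of the difference in their sum hung on single cells. The sum of the 6 genes was 206 UPM in ND and 123 in HFD, a ratio of 0.598 (0.539 to 0.665). It turned to 1.28 (1.12 to 1.47) without the highest cell of each library, because 1 ND fibroblast-like cell held 402 of the 423 Tagln UMIs. That cell held 31 Acta2 and 180 Col1a1 UMIs and none of Myh11. Of the 4 contractile genes tested here 0 were higher and 1 (Tagln) lower by 1.5-fold, beside 7.74% and 5.26% of the 11990 genes tested. The 3 pericyte genes tested were higher, Cox4i2 with 11 and 239, Kcnj8 with 19 and 49 and Abcc9 with 7 and 39 UMIs. Each reached the minimum of 20 UMIs only with the HFD cells, so their count is no like comparison with those shares. Of the 239 HFD Cox4i2 UMIs, 233 lay in chondrocyte-like cells, and Rgs5 had too few UMIs to be tested. Tenocyte-like cells, at median depths of 11006 and 9775 UMIs, held Tpm2 and Myl9 in many cells, with UMIs in 37.5% (ND) and 45.4% (HFD) of cells for Tpm2 and in 44.8% and 33.1% for Myl9, at 73.8 and 82.9 and at 87.9 and 71.1 UPM. Tagln differed more between the tenocyte-like cells of the 2 libraries, with 13 and 164 UMIs in 6 of 96 ND and 16 of 163 HFD cells, a ratio of 8.51 (4.84 to 16.3), and 9.10 (4.25 to 23.3) without the highest cell of each library. In HFD 2 cells held 71 and 33 of the 164 UMIs. The sum of the 6 genes in this class was 189.8 and 281 UPM, a ratio of 1.48 (1.26 to 1.75), and 1.42 (1.19 to 1.69) without those highest cells. B cell-like cells with a UMI, at 3913.5 and 3831 UMIs, were at most 1.07% for Myl9 and 0.936% for Tpm2.

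Cox4i2 had its other high level in chondrocyte-like cells. It stood at 37.1 (17.0 to 70.4) UPM in the 15 ND cells and 338 (296 to 384) in the 34 HFD cells, a ratio of 9.10 (4.71 to 20.2), and 13.0 without the highest cell of each library. The HFD level was close to that of the HFD mural-like cells, 364, and the intervals overlapped. The UMIs came from few cells, with 3 of 15 ND cells at 2 to 4 UMIs and 11 of 34 HFD cells at 1 to 55, and 8 HFD cells but no ND cell with at least 5. In HFD the 11 cells with Cox4i2 differed from the 23 without it in other genes, chosen after their values were seen. Acan, aggrecan of cartilage, stood at 1353 against 161 UPM, whereas Col2a1, the main cartilage collagen, stood at 1906 against 3002. Of the other cartilage markers measured, Snorc stood at 161 against 10.7 and Hapln1 at 379 against 104. Col9a1 gave 7 and 0 UMIs, and Matn3 was at 0 in both sets of cells. Ibsp stood at 7743 against 428, Spp1 at 10679 against 378 and Wif1, a Wnt inhibitor, at 2588 against 212. Prg4, lubricin of the joint surface, went the other way, at 42622 against 108402. In ND the 3 cells with Cox4i2 also had Ibsp at 45077 against 826 in the other 12 and Prg4 at 23143 against 56176, but Acan was at 271 against 243 with overlapping intervals, and Col2a1 was higher in the cells with Cox4i2, at 1899.8 against 1109. In HFD Cox4i1 stood at 528 against 712, and the median depth was 26664 against 17709 UMIs. Of the chondrocyte-like cells, 7 ND and 10 HFD cells were among the highest doublet scores. The contractile genes were nearly absent there, with 19 and 24 UMIs for all 6.

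The channel genes Kcnj8 and Abcc9 were sparse but not confined to perivascular cells. In fibroblast-like cells Kcnj8 had 2 and 19 UMIs and Abcc9 6 and 34, at 2.60 (0.954 to 5.66) and 11.1 (7.67 to 15.5) UPM for Abcc9, spread over 4 and 14 cells. One HFD fibroblast-like cell held 5 Kcnj8 and 10 Abcc9 UMIs with no Rgs5. In tenocyte-like cells Kcnj8 stood at 13.2 (7.38 to 21.7) and 16.6 (11.02 to 24.0) with 1 and 4 Abcc9 UMIs. T/NK-like cells carried Kcnj8 at the same level in both libraries, 14.5 (10.3 to 19.9) and 14.4 (9.82 to 20.5), in 7.75% and 8.39% of cells, against 0.129% and 0.0669% of B cell-like cells. The T/NK-like cells were also deeper, at 6037 and 6341 UMIs against 3913.5 and 3831, and thinned to 2000 UMIs the shares were 1.96% and 2.90% against 0.0653% and 0.0682%. No Abcc9 UMI was found in the 413 ND and 310 HFD T/NK-like cells, which allows shares of cells with a UMI of up to 0.726% and 0.968%.

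Endothelial-like cells, the neighbours of mural cells in the vessel wall, showed the contractile genes mainly through single cells. In ND 1 cell held 67 of the 71 Acta2 and 30 of the 34 Myh11 UMIs, together with 9 Cdh5 UMIs, 48 of Rgs5 and 13 of the 16 mural markers, and it was among the highest doublet scores. With it, Acta2 stood at 135 and 90.2 UPM (ratio 0.668) and Myh11 at 64.7 and 6.79. Without the highest cell of each library the Acta2 ratio turned to 5.96 (2.18 to 22.8). Of the 5 contractile genes tested in this class 0 were higher and 3 (Acta2, Myh11 and Tpm2) lower by 1.5-fold, beside 10.4% and 9.58% of 7474 genes. The ND UMIs of these 3 lay mostly in the 1 ND cell above, with 32 of 34 for Tpm2. Tagln had a UMI in 12 of 112 ND and 20 of 224 HFD cells, at 247 (207 to 294) and 291 (259 to 326). Its totals also rested on single cells, since 1 HFD cell among the highest doublet scores held 144 of the 300 UMIs, and without the highest cell of each library the ratio moved from 1.18 to 0.934 (0.711 to 1.23).

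Among blood cells, Acta2 was highest in neutrophil-like cells. It stood at 41.1 (38.0 to 44.4) and 41.7 (38.7 to 44.9) UPM over 2401 ND and 2430 HFD cells, while B cell-like cells were at 5.55 (4.03 to 7.45) and 6.84 (5.13 to 8.95). A UMI was found in 18.7% and 21.03% of neutrophil-like cells at median depths of 4126 and 4302, against 2.51% and 2.14% of B cell-like cells. Thinned to 2000 UMIs the shares were 10.5% and 11.2% against 1.24% and 1.30%. Of the UMIs of Acta2 and Tagln together, Acta2 made 93.7% (91.7 to 95.4) and 91.2% (88.9 to 93.1) in neutrophil-like cells, but 49.1% and 52.2% in mural-like and 37.8% and 57.0% in osteogenic-like cells. The proportion of the 2 genes thus differed between the neutrophil-like and the stromal classes by more than the counting error.

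Within the neutrophil-like cells the level of Acta2 differed between the clusters. It was lowest in the cluster led by Camp, Ngp and Chil3, genes of neutrophil granule and secreted proteins, at 2.26 (ND) and 3.60 (HFD) UPM, and then in that led by Ngp, Camp and Ltf, at 11.04 and 7.02. The cluster led by Retnlg, Ngp and Ltf stood at 45.6 and 50.3. It was highest in the clusters led by Acod1, Il1r2 and Il1b, at 70.3 and 92.3, and by Cstdc4, Retnlg and Ccl6, at 88.8 (79.4 to 99.0) and 96.0 (86.6 to 106). A further cluster led by Retnlg, G0s2 and Cstdc4 held 171 ND cells at 63.7 and 18 HFD cells at 42.2. The order of the other 5 clusters was the same in both libraries, although the intervals of the 2 highest clusters overlapped in both and those of the 2 lowest in HFD. By share of cells with a UMI the order differed. The cluster led by Retnlg, Ngp and Ltf had 23.8% and 26.1%, that led by Acod1, Il1r2 and Il1b 13.6% and 19.8%. Median depth ran from 29973 and 26495 UMIs in the lowest cluster to 2673.5 and 2669.5 in that led by Acod1, and its part was not tested. No neutrophil-like cell held more than 7 Acta2 UMIs, against a lowest value of 12 in the mural-like cells.

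Class profiles were compared over 28 points (14 named classes in each of 2 libraries) for 1183 genes with at least 100 UMIs in the mural-like cells. The contractile members stood highest in that class, so this filter favoured high correlations. The genes whose log2 levels followed the summed contractile genes most closely were Mylk, the myosin light chain kinase (Pearson's r = 0.970), Nexn, an actin-binding protein (0.961), Gjc1, connexin 45 (0.954), Phldb2 (0.9503) and Palld, palladin (0.948). Mylk stood at 2122 and 2081 UPM in the mural-like and 391 and 343 in the osteogenic-like cells, and so, unlike Acta2, was not higher in the HFD osteogenic-like cells. For the summed pericyte genes the closest were Filip1 (0.923), Sorbs2 (0.923), Crim1 (0.896), Btbd3 (0.895) and Actn4 (0.893). That summed profile rested on few cells in HFD. There 2 cells held 453 of the 903 UMIs of the mural-like class, and 1 cell held 231 of the 284 of the endothelial-like class. Filip1 stood at 173 and 252 UPM in the mural-like and 85.6 and 99.9 in the endothelial-like cells. The points share library and depth, so these are descriptions.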

How the data were processed

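Per the labels and the submitters' processing notes, the reads were processed with Cell Ranger 6.0.1 on mm10. The labels list 4 mice per diet, and each diet has 1 matrix, read here as 1 pooled library. The deposited filtered matrices hold UMI counts, with no normalization. Cells with over 500 and under 8000 genes and under 20% mitochondrial UMIs were kept. Counts were normalized with sctransform 0.4.2, with cell cycle scores regressed, and clustered in Seurat 5.3.0 (30 components, resolution 0.5), once for all cells and again for stromal and vascular cells, without the 10 genes. A cluster took the class whose markers stood highest, with at least 3 detected. The rule named a cluster of 550 cells erythroid, but it was left unnamed by hand, as its leading genes came from several lineages. A cluster of 54 cells led by Retnlg and Cstdc4 as well as B cell genes kept the B cell name. Neutrophil markers summed to 7179 (ND) and 4281 (HFD) UPM in the B cell-like class. Cells stromal at the first clustering but with other markers at the second were called mixed. The automatic Scrublet threshold (scanpy 1.11.5) marked 9 ND and 23 HFD cells, so the highest 5% of scores per library (327 and 334 cells) were taken as calls and kept. Class counts were summed and divided by class totals, and 0.5 was added for log2 ratios. Genes with at least 20 UMIs over both libraries counted as tested, and 1.5-fold as a call, without p-values. The ratio code was tested on simulated data. The members and lists were chosen with earlier results of these data known. Genes were named by a rule: the members, the 4 companions of each list with most UMIs, those past 1.5-fold with at least 200 UMIs, up to 3 striated muscle or platelet genes with most UMIs, and the 5 genes of most similar class profile over log2 of UPM (UMIs per 1000000) plus 10. Other genes, among them those of the osteogenic- and chondrocyte-like subsets, fell outside the rule and were named after their values were seen. Shares have Clopper-Pearson and ratios conditional binomial intervals. Alternatives were another scaling, per-cell means, thinning, a 200-gene minimum, doublet removal, 2 more resolutions, clustering with the members and a marker gate.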

Additional observations from a re-analysis of the deposited data

Results flagged for a closer look

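The summed contractile genes went opposite ways in the 2 kinds of stromal cell, at a log2 ratio of HFD over ND of 0.73 in osteogenic-like and -0.74 in other stromal cells. The difference was not tested, since each diet is 1 library, and the second value changed sign without the highest cell of each library.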

How the results depend on the processing

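No paired analysis was possible because each diet is 1 matrix and no cell carries a mouse number. Log2 ratios of HFD over ND moved as follows, and the cause was not tested. The mural contractile sum (0.12) was 0.18 with a minimum of 200 genes, 0.16 with the members kept in clustering or at resolution 0.25 or 1.0, and 0.27 with a marker gate. The mural pericyte sum (1.13) was 0.88, 0.51 and 0.72 under the same settings, 0.070 without doublet calls and 0.17 without the 2 HFD cells rich in Kcnj8 and Abcc9. The osteogenic contractile sum (0.73) was 1.26 as a mean of cells, 1.57 thinned, 0.43 without doublet calls, 0.52 with the members kept or at either resolution, 0.37 with the gate, 1.32 without the highest cell of each library and 0.52 without cells rich in neutrophil markers. The values of 0.43, 0.52 and 0.37 lie below the 1.5-fold threshold that the main value passed. The other stromal contractile sum (-0.74) was -0.036 as a mean of cells, -0.33 thinned, and reversed to 0.36 without the highest cells. The log2 ratio of mural shares (1.00) was 0.22 among stromal and vascular cells. The settings without the 2 HFD cells, without the highest cells, without cells rich in neutrophil markers and among stromal and vascular cells were chosen after the data were seen. Of the other values of these results and of the companion medians in mural-like cells, 32 stayed within their counting interval or within 0.1. For single genes and other lists, 47 of the values did and 55 did not. With 28 mural-like ND cells, a gene at 0 could still reach 11.5 UPM, so the absence of Abcc9 there was not shown.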
